A study of Homo sapiens with 4 samples.

Results

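The high mobility group (HMG) chromatin proteins are small, abundant nuclear proteins that bind DNA or nucleosomes and make chromatin more flexible or more open. The 10 genes described here, HMGB1, HMGB2, HMGB3, HMGA1, HMGA2, HMGN1, HMGN2, HMGN3, HMGN4 and HMGN5, were taken by exact gene symbol from 54628 rows of each count table, and all 10 had enough reads to be tested. They were read in poly(A) RNA of Panc1, an established epithelioid cell line from a human pancreatic ductal carcinoma. By label, 2 libraries received siRNA (small interfering RNA) against HMGB2 and 2 received scramble siRNA, and all 4 come from the same cell line with no other agent named. No source used here gives the time after transfection or the siRNA sequences, or says whether same-label libraries are separate cultures, and p-values therefore measure only how far these libraries differ, which may be technical.

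HMGB proteins carry a pair of HMG boxes, L-shaped domains that enter the minor groove and bend DNA, followed by an acidic tail. HMGA proteins use short AT-hooks to bind the minor groove of AT-rich DNA and are best known from embryonic and malignant cells, pancreatic carcinoma among them. HMGN proteins bind the nucleosome core itself and compete with linker histone H1 for chromatin. HMGB2 is a proliferation-associated gene, whereas HMGB1 is made in nearly all cells and also acts outside the cell as an alarm signal.

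The coding sequences of the family members are related, which bears on how far reads and an siRNA can tell them apart. The first 120 coding bases of the HMGB genes, which encode the start of the first HMG box, are shown 5′ to 3′ from the GENCODE transcripts of GRCh38, with capitals at bases that differ from HMGB2.
HMGB2: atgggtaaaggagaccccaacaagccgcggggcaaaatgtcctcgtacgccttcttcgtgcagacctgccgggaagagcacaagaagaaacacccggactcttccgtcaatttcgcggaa
HMGB1: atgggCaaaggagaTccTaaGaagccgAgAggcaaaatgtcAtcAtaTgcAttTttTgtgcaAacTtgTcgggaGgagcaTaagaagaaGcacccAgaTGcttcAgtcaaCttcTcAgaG
HMGB3: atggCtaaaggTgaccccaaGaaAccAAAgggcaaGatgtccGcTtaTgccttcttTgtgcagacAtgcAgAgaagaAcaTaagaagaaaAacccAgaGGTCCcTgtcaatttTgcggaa
In this window HMGB1 and HMGB3 each differed from HMGB2 at 26 bases. Over the whole aligned coding sequence HMGB2 was 77.1% identical to HMGB1 and 72.6% identical to HMGB3. The longest run of identical coding bases was 29 between HMGB2 and HMGB1 and 17 between HMGB2 and HMGB3. HMGN2 and HMGN4 are the closest pair among the 10 genes, with 86.4% identity over 273 aligned coding bases and a longest shared run of 20. Their first 90 coding bases are shown in the same way, with capitals in HMGN4 at the 11 bases that differ from HMGN2.
HMGN2: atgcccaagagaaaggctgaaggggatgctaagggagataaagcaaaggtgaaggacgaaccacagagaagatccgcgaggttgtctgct
HMGN4: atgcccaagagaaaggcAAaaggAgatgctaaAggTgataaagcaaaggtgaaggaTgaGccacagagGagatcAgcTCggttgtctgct
Identity between the other pairs of HMGN genes and between HMGA1 and HMGA2 was 65.6% to 74.4%, with no shared run longer than 13 bases.

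HMGB2 checks the labels, and it went against them. HMGB2 (GRCh38 chromosome 4, 173331376 to 173334358, minus strand) was counted 4021 and 2746 times under the HMGB2 siRNA label and 346 and 319 times under the scramble label. The count columns of the deposited tables are headed with the other treatment than the sample labels in all 4 cases. Groups keep their labels below. Higher and lower always describe the HMGB2 siRNA label (HMGB2-high, 4021 and 2746 counts) relative to the scramble label (HMGB2-low, 346 and 319 counts). If the file headings were right, the treatment names of the groups would swap. Directions read as HMGB2 siRNA against scramble would then turn round, while those read as HMGB2-high against HMGB2-low would not. Total counts were 31852391 and 20976561 under the HMGB2 siRNA label and 21874647 and 20340695 under the scramble label. Of 7 ductal carcinoma line markers all 7 were tested. Under the HMGB2 siRNA label 4 were higher, 0 lower and 3 did not pass (16.7% higher and 14.1% lower over all genes). Their summed level was 7029 and 6957 CPM (the count scaled by library size) against 6423 and 5427 CPM. That sum includes VIM, a gene not particular to epithelial cells, at 2155 to 2477 CPM. Among the others KRT8, KRT18 and KRT19 had 397.5 to 2772 CPM, and EPCAM, CDH1 and KRT7 only 2.59 to 20.5 CPM. Of 6 genes of other pancreatic cells, PRSS1, INS and GCG had 0 counts in every library, CPA1 and CELA3A had 0 to 4, and PDX1 had 150 to 256 counts and did not pass (adjusted p = 0.893). PRSS1 and INS share exon bases on the same strand with TRB and INS-IGF2, so reads there may be missing from their rows. Of 6 genes of other cell types, CD3E had 0 counts and PTPRC and PECAM1 at most 3. CD68 (98.7 to 121.1 CPM) and COL1A1 (55.2 to 76.7 CPM) were present and did not pass (adjusted p = 0.7 and 0.285). Their direction depended on the scramble library kept. Log2 fold changes were -0.18 and -0.34 without scramble replicate 2, and 0.12 and 0.14 without scramble replicate 1. COL3A1 (1.14 to 2.77 CPM) was higher (adjusted p = 0.00292), but not without replicate 1 labelled HMGB2 siRNA (adjusted p = 0.104). The part of these markers in the differences of the HMG genes was not tested. For a row that shares no exon, as GCG, a count of 0 allows up to 0.0942 to 0.147 CPM, which covers counting error only.

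Compared per length, HMGA1 was the most abundant member and HMGN5 the least abundant in both groups. TPM is here the count per exon base relative to the sum of that quantity over all genes of the library. HMGA1 stood at 1041 and 1112 TPM under the HMGB2 siRNA label and at 1306 and 1274 TPM under the scramble label, above 99.2% and 99.4% of tested genes by group mean. HMGN2 followed at 430.3 to 449.9 and 349.6 to 364.3 TPM. Under the HMGB2 siRNA label the next 4 genes lay close together. HMGB3 (219.1 and 230.5 TPM) was above HMGB2 (202.6 and 208.9), HMGN1 (202.9 and 204.5) and HMGB1 (198.9 and 202.4), and the values of HMGB2 enclosed those of HMGN1. HMGN4 and HMGN3 also overlapped there, at 84.8 to 92.9 and 88.0 to 89.1 TPM, followed by HMGA2 at 69.5 and 72.5 TPM. Under the scramble label HMGB2 stood second from last, at 24.7 and 24.9 TPM, and no 2 neighbouring members overlapped. Exon lengths are unions over all listed transcripts, so genes with long alternative ends such as HMGB1 (7289 exon bases) may be understated against HMGB2 (1567 exon bases).

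**Figure D1:**
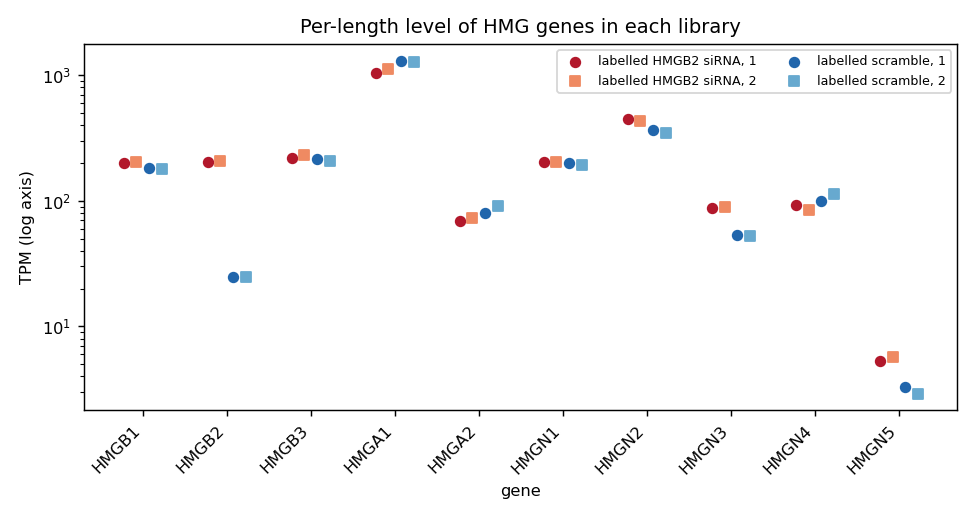
Per-length level (TPM, log axis) of each of the 10 HMG genes in each of the 4 libraries, with circles for replicate 1 and squares for replicate 2. HMGB2 stands near 200 TPM under the HMGB2 siRNA label (202.6 and 208.9) and near 25 under the scramble label (24.66 and 24.90), while the other 9 genes move far less.

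Of the 10 genes, 5 were higher under the HMGB2 siRNA label (HMGB2-high), 3 were lower and 2 did not pass the test (quasi-likelihood test in edgeR, p under 0.05 after Benjamini-Hochberg adjustment over 15161 genes). Across all tested genes 16.7% were called higher and 14.1% lower, or 30.8% in either direction. Those shares were not matched for level, and most members stand high. By mean TPM, HMGN5 aside, the members were at percentile 85.2 or above of tested genes under the HMGB2 siRNA label. Under the scramble label HMGB2 was at 66.0 and the rest at 81.0 or above, again HMGN5 aside. The part of level in the number of calls was not tested. The higher members were HMGB2, HMGB1, HMGN2, HMGN3 and HMGN5, and the lower ones HMGA1, HMGA2 and HMGN4. Over the 10 genes the log2 fold change had a median of 0.14, and over all genes tested one of -0.01. For all 10 genes both libraries of one group lay above both of the other, which held for 63.7% of tested genes. With 2 libraries a label, the smallest two-sided p of an exact permutation test on 1 gene is 0.333, and each edgeR test rests on the spread shared across genes. In bulk RNA, fewer cells expressing a gene and less RNA per cell cannot be told apart.

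**Figure D2:**
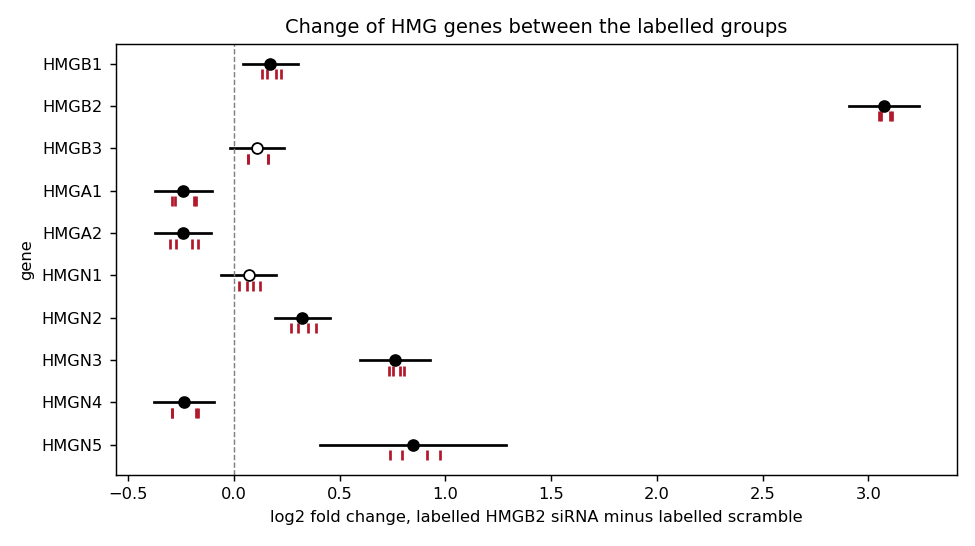
Log2 fold change of each HMG gene, libraries labelled HMGB2 siRNA minus libraries labelled scramble, with 95% intervals as black lines, filled points for genes that passed the test and open points for those that did not. Red ticks give the value with each of the 4 libraries left out; HMGB2 is far to the right at 3.07, HMGN3 and HMGN5 follow at 0.76 and 0.85, and HMGA1, HMGA2 and HMGN4 sit near -0.24.

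HMGB2 differed more than any other member. It had 127.9 and 133.8 CPM under the HMGB2 siRNA label and 15.7 and 15.3 CPM under the scramble label. The log2 fold change was 3.07 ± 0.08 (SE, 95% interval 2.91 to 3.24), an 8.43-fold difference (edgeR adjusted p = 1.54e-33), and HMGB2 had the smallest p of all 15161 genes tested. Its paralogs covered a narrow range. HMGB1 (chromosome 13, 30456704 to 30617597, minus strand) had 584.0 and 602.9 CPM against 541.9 and 511.4 CPM, a log2 fold change of 0.17 with a 95% interval from 0.04 to 0.30 (adjusted p = 0.0371). This small call on HMGB1 ended with total-count scaling (adjusted p = 0.106) and upper-quartile scaling (adjusted p = 0.146), with the replicate block (adjusted p = 0.0648), without replicate 1 (adjusted p = 0.204) or replicate 2 (adjusted p = 0.338) labelled HMGB2 siRNA and without scramble replicate 2 (adjusted p = 0.0737). HMGB3 (chromosome X, 150980507 to 150990773, plus strand), a family member known from blood progenitor cells, had 363.6 and 388.2 CPM against 358.9 and 337.8 CPM. Its log2 fold change of 0.11 did not pass (95% interval -0.02 to 0.24, adjusted p = 0.21), and it passed once scramble replicate 1 was left out (0.16, adjusted p = 0.0244). The intervals of both paralogs ended below a log2 fold change of 0.31. Neither paralog was called higher where HMGB2 was lower.

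The HMGB family as a whole differed in both amount and composition between the labelled groups. Summed over HMGB1, HMGB2 and HMGB3, the HMGB2 siRNA label (HMGB2-high) had 620.6 and 641.8 TPM and the scramble label had 421.6 and 412.5 TPM. HMGB1 and HMGB3 alone summed to 418.0 and 432.8 against 396.9 and 387.6 TPM. HMGB2 made up 32.6% ± 0.07 (SD, n = 2) of the family sum under the HMGB2 siRNA label, about level with HMGB1 at 31.8% ± 0.37 and HMGB3 at 35.6% ± 0.43 (SD, n = 2 each). Under the scramble label its share was 5.94% ± 0.13 (SD, n = 2). HMGB2 stood at 1.03 times the HMGB1 level in the former group and at 0.137 times in the latter. These shares are of transcripts per length, not of protein. They depend on the exon unions used, of 7289 bases for HMGB1, 1567 for HMGB2 and 4121 for HMGB3. Before division by length, HMGB1 had 584.0 and 602.9 CPM under the HMGB2 siRNA label, HMGB2 127.9 and 133.8, and HMGB3 363.6 and 388.2.

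**Figure D3:**
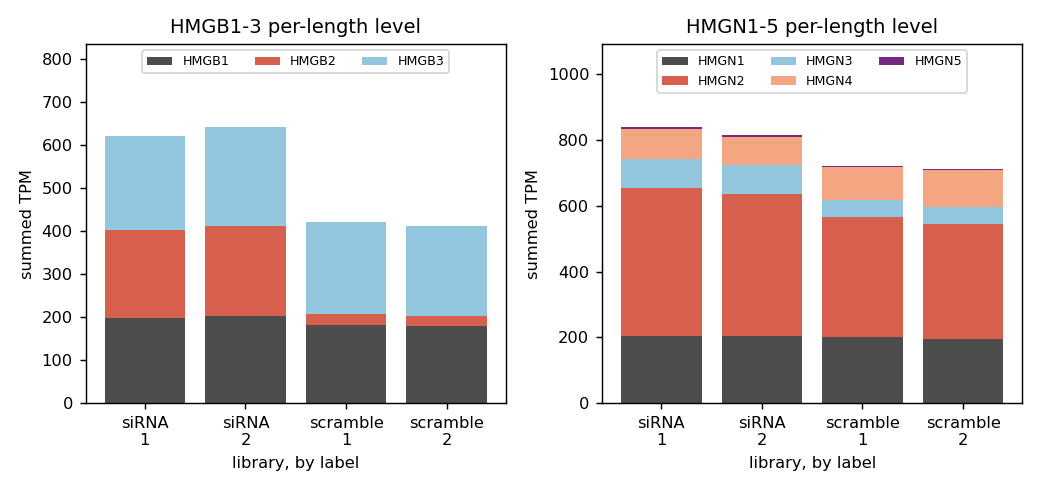
Stacked bars of summed TPM for the HMGB genes (left) and the HMGN genes (right) in each library, named by label and replicate. The HMGB2 segment shrinks from about 205.8 TPM to 24.8 TPM (group means) while the HMGB1 and HMGB3 segments stay similar, and the HMGN sums are 839.1 and 814.4 against 720.6 and 712.5 TPM.

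Both HMGA genes were lower under the HMGB2 siRNA label (HMGB2-high), by nearly the same amount. HMGA1 (chromosome 6, 34236873 to 34246231, plus strand), the member expressed most widely in carcinomas, had 975.7 and 1058 CPM against 1236 and 1163 CPM. It was 1.18-fold lower, with a log2 fold change of -0.24 ± 0.07 (SE, adjusted p = 0.00467). HMGA2 (chromosome 12, 65824460 to 65966291, plus strand), a mainly embryonic gene that is often re-expressed in tumours, had 169.7 and 179.6 CPM against 196.6 and 215.8 CPM, also 1.18-fold lower (-0.24 ± 0.07, SE, adjusted p = 0.00375). The ratio of HMGA1 to HMGA2 per length was 15.2 ± 0.26 (SD, n = 2) under the HMGB2 siRNA label and 15.2 ± 1.7 (SD, n = 2) under the scramble label. Without replicate 1 labelled HMGB2 siRNA neither passed (HMGA1 -0.18, adjusted p = 0.279; HMGA2 -0.20, adjusted p = 0.215). The antisense gene HMGA2-AS1 shared no exon bases with HMGA2 and had 1.46 and 1.80 against 2.13 and 2.26 CPM (adjusted p = 0.272).

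The HMGN genes split in direction. HMGN3 (chromosome 6, 79201245 to 79234682, minus strand), first described as a partner of the thyroid hormone receptor, was counted 1576 and 1057 times under the HMGB2 siRNA label (HMGB2-high) and 674 and 609 times under the scramble label, or 50.1 and 51.5 against 30.6 and 29.2 CPM. The groups were well separated, and HMGN3 was 1.70-fold higher (log2 fold change 0.76 ± 0.08, SE, adjusted p = 1.57e-10). HMGN5 (chromosome X, 81113699 to 81201913, minus strand), a nucleosome-binding protein with a long acidic tail, had 142 and 101 against 62 and 50 counts. It was 1.80-fold higher (0.85 ± 0.22, SE, adjusted p = 0.0021), with the fewest reads and the widest interval of the 10 genes, 0.41 to 1.29. HMGN2 (chromosome 1, 26472440 to 26476642, plus strand), the most abundant HMGN, had 351.6 and 341.2 against 287.5 and 266.2 CPM and was higher, with a log2 fold change of 0.32 ± 0.07 (SE, adjusted p = 8.35e-05). HMGN1 (chromosome 21, 39342315 to 39349088, minus strand) did not pass, with 312.7 and 319.7 against 311.0 and 291.4 CPM (0.07, 95% interval -0.06 to 0.20, adjusted p = 0.449). HMGN4 (chromosome 6, 26538347 to 26546933, plus strand), whose coding sequence is the closest to HMGN2, went the other way, with 85.0 and 78.8 against 92.4 and 100.9 CPM. HMGN4 was 1.18-fold lower (adjusted p = 0.00738), a call that ended without replicate 1 (adjusted p = 0.0504) or replicate 2 (adjusted p = 0.282) labelled HMGB2 siRNA. Within the summed HMGN level, HMGN3 made up 10.7% ± 0.32 against 7.39% ± 0.005 and HMGN4 10.7% ± 0.47 against 14.9% ± 1.4 (SD, n = 2 each).

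HMGN3 shares 137 exon bases with HMGN3-AS1, a noncoding gene read from the other strand. Reads of the pair cannot be told apart there unless strand was used in counting. The antisense row moved against HMGN3. HMGN3-AS1 was counted 67 and 48 times under the HMGB2 siRNA label (HMGB2-high) and 74 and 76 times under the scramble label, a log2 fold change of -0.66 ± 0.24 (SE, adjusted p = 0.0346). HMGN3 counts were 22.8 ± 1.1 times those of HMGN3-AS1 in the former and 8.56 ± 0.77 times in the latter (SD, n = 2 each). The call on HMGN3-AS1 ended with DESeq2 (adjusted p = 0.144) and without replicate 1 (adjusted p = 0.253) or replicate 2 (adjusted p = 0.104) labelled HMGB2 siRNA or scramble replicate 2 (adjusted p = 0.109), whereas HMGN3 passed in all 12 alternatives tried. No other member shared exon bases with another gene.

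Promoter sequence from RefSeq (GRCh38.p14) was matched for 8 of the 10 genes; HMGB2 and HMGA2 were not matched. The promoters of HMGN3, HMGN2 and HMGA1 are shown for genes that were called in opposite directions, each as the 250 bases before and 50 bases after the start, 5′ to 3′ on the gene's strand, with capitals at the CCAAT box, searched as CCAAT on both strands (ATTGG on the other). HMGN3 (chr6:79234633-79234932, minus strand) and HMGN2 (chr1:26472190-26472489, plus strand) were higher under the HMGB2 siRNA label (HMGB2-high), and HMGA1 (chr6:34236623-34236922, plus strand) was lower.
HMGN3: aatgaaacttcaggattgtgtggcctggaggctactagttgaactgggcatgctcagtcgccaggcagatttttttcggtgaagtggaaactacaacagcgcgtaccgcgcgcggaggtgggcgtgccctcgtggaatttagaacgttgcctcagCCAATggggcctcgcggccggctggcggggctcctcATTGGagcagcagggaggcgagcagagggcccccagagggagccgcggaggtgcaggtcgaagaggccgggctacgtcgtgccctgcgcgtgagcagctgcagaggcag
HMGN2: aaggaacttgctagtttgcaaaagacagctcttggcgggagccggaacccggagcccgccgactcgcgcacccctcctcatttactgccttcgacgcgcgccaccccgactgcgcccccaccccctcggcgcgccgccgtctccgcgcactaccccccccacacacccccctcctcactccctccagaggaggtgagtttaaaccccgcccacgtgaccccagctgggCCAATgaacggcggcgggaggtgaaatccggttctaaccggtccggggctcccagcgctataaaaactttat
HMGA1: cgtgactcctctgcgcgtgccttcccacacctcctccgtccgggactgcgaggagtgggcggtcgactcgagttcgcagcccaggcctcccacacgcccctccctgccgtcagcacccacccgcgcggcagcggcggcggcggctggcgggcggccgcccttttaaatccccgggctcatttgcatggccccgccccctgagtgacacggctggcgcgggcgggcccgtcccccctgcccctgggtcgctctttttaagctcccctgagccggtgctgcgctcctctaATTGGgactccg
The HMGN3 promoter held the box at 2 places and the HMGN2 promoter at 1. In HMGA1 its 1 match lay after the start, and another listed HMGA1 start also had 1. The HMGB1 start at chr13:30465887-30466186 and the HMGB3 start at chrX:150983085-150983384 each held 3. The other listed starts held 1 and 0 for HMGB1 and 0 for HMGB3. HMGN1 held 2, and HMGN4 and HMGN5 held 0. At least 1 CCAAT was present in 34.6% of 35116 promoters of this length, at least 2 in 10.8% and at least 3 in 3.26%. The letters TTTGAA, the core of the cell cycle homology region, were found at 1 start each of HMGB1 and HMGB3 and at no start of the other matched members, against 15.2% of all promoters (TTCAAA counted as the other strand). With HMGB2 and HMGA2 unmatched and several starts for some genes, these letters cannot show whether members called higher and lower differ. The part of these letters in the differences of the HMG genes was not tested.

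Processed copies of the HMG genes are common in the genome, and 178 rows of the tables carried the name of an HMG pseudogene. Of these, 76 had at least 1 count in at least 1 library, with 5594 counts in all. HMGB1 copies took 6.17% of the counts of HMGB1 and its copies together, HMGN2 copies 3.91%, and copies of HMGA1, HMGB3, HMGN1 and HMGB2 0.134% to 0.93%. The HMGB1P6 transcript was 98.1% identical to HMGB1 over 648 bases, and HMGB1P6 had 25.8 and 27.7 CPM under the HMGB2 siRNA label against 24.98 and 22.89 CPM (adjusted p = 0.234). HMGB1P5 and HMGN2P41, the next most counted, did not pass either (adjusted p = 0.168 and 0.0507), and HMGN2P41 did pass with RLE scaling (adjusted p = 0.0499), without a low-count filter (adjusted p = 0.0419), with the replicate block (adjusted p = 0.0496) and without scramble replicate 1 (adjusted p = 0.00328). HMGN2P3, the next by count, named after its values were seen and 99.3% identical to HMGN2 over 273 bases, had 5.85 and 5.80 against 3.77 and 4.13 CPM and was higher, as HMGN2 was (0.56, adjusted p = 0.0187). The HMGN2P3 call ended with DESeq2 (adjusted p = 0.0992) and without replicate 1 (adjusted p = 0.137) or replicate 2 (adjusted p = 0.0833) labelled HMGB2 siRNA or scramble replicate 1 (adjusted p = 0.0531). How reads mapping equally well to a gene and its copy were counted is not given in the sources used here, so HMGB1 and HMGN2 levels are less certain than that of HMGB2, whose single named copy had 10 counts over all libraries.

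Many other proteins carry an HMG box. Of 43 other HMG-box genes listed, 33 were tested, of which 8 were higher under the HMGB2 siRNA label (HMGB2-high), 6 were lower and 19 did not pass, beside 16.7% higher and 14.1% lower over all genes tested. Their median log2 fold change was 0.08. The list was chosen with earlier results of these data known, so its counts are not independent of the data. TFAM, which packages mitochondrial DNA and starts its transcription, had 141.9 and 142.2 against 84.4 and 85.2 CPM and was 1.67-fold higher (adjusted p = 5.69e-13). BBX was 1.49-fold higher (adjusted p = 2.16e-07) and WDHD1, a replication fork protein, 1.46-fold higher (adjusted p = 2.3e-06). SOX4, a transcription factor of progenitor and tumour cells, had 128.8 and 130.4 against 178.5 and 192.6 CPM and was 1.43-fold lower (adjusted p = 1.12e-08). SSRP1, the HMG-box subunit of the histone chaperone FACT, did not pass (306.4 and 329.0 against 309.0 and 279.2 CPM, adjusted p = 0.213; 0.00592 without scramble replicate 1). SSRP1 was chosen after its values were seen. Without replicate 1 labelled HMGB2 siRNA 7 were higher and 3 lower, without replicate 2 of that label 6 and 2, and without scramble replicates 1 and 2 in turn 10 and 5, and 8 and 8.

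**Figure D4:**
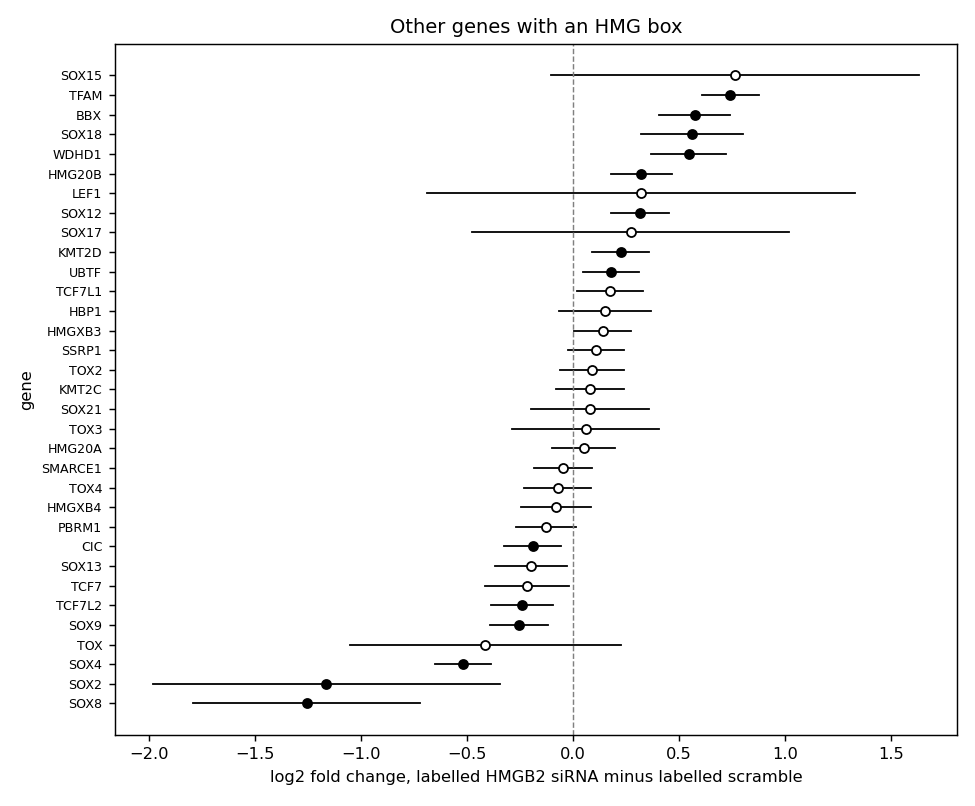
Log2 fold change with 95% interval of the 33 tested genes with an HMG box outside the 10 members, libraries labelled HMGB2 siRNA minus libraries labelled scramble, sorted by value. Filled points (8 to the right of 0, 6 to the left) passed the test, with TFAM the highest of them at 0.74 and SOX8 the lowest at -1.25.

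Genes that work with HMG proteins were read from shorter lists, also chosen with earlier results of these data known. In the SET complex, an endoplasmic reticulum-associated DNA repair complex that contains HMGB2, SET itself was lower under the HMGB2 siRNA label (HMGB2-high; 505.8 and 544.4 against 620.4 and 636.2 CPM, adjusted p = 0.00156), though not without replicate 1 of that label (adjusted p = 0.193). ANP32A, APEX1 and NME1 did not pass, and TREX1 had 0 counts in every library, with 1436 exon bases shared with ATRIP on the same strand. Among 12 genes for receptors and partners of extracellular HMGB1, 9 had too few reads to test, among them the receptor genes AGER, TLR2 and TLR4. CD24, a surface glycoprotein that binds HMGB1, was 1.26-fold higher (adjusted p = 8.84e-05) and the adaptor MYD88 1.22-fold lower (adjusted p = 0.00522). Of the 3 genes tested here 1 was higher, 1 lower and 1 did not pass. In the SET complex 4 were tested, with 0 higher and 1 lower. Over all genes 16.7% were higher and 14.1% lower. The CD24 call ended without replicate 1 labelled HMGB2 siRNA (adjusted p = 0.0573), and the MYD88 call without replicate 1 (adjusted p = 0.166) or replicate 2 (adjusted p = 0.0692) of that label.

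Linker histones, which HMGN and HMGA proteins displace from chromatin, were 1 higher, 1 lower and 3 not passing of 5 tested (16.7% and 14.1% over all genes). H1-10 had 186.8 and 200.9 against 163.9 and 142.8 CPM under the HMGB2 siRNA label (HMGB2-high) and the scramble label (adjusted p = 0.000107), and H1-2 had 22.2 and 25.3 against 45.9 and 41.0 CPM (adjusted p = 3.86e-11). These are counts of poly(A) RNA, so histone transcripts without a poly(A) tail may be missing from them. The count of lower linker histones was 2 in 7 of the 12 alternatives, among them leaving out replicate 2 labelled HMGB2 siRNA, scramble replicate 1 or scramble replicate 2.

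HMGA2 is a textbook target of the let-7 microRNAs, whose maturation LIN28A and LIN28B block. The seed of let-7a (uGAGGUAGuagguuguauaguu, RefSeq, bases 2 to 8 in capitals) is shared by the family. Of 8 tested genes of this axis, 4 were higher under the HMGB2 siRNA label (HMGB2-high), 1 was lower and 3 did not pass. Over all genes 16.7% were higher and 14.1% lower. Earlier results of these data were known when the list was chosen, so these counts are no independent support. Leaving out replicate 2 labelled HMGB2 siRNA gave 2 higher and 1 lower, and leaving out its replicate 1 gave 3 higher and 0 lower. LIN28B had 30.7 and 35.2 against 9.13 and 9.55 CPM, 3.51-fold higher (adjusted p = 8.01e-19). The mRNA-binding proteins IGF2BP2 and IGF2BP1 were 1.32-fold and 1.23-fold higher (adjusted p = 4.96e-06 and 0.000625), IGF2BP1 not without replicate 2 labelled HMGB2 siRNA (adjusted p = 0.0683). ARID3B was lower (-0.30, adjusted p = 0.0031), though not without replicate 1 labelled HMGB2 siRNA (adjusted p = 0.158). HMGA2 itself was 1.18-fold lower, as given above. MicroRNAs were not measured in these libraries.

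Proliferation markers moved with HMGB2. Of 8 such genes 7 were higher under the HMGB2 siRNA label (HMGB2-high) and 0 were lower (16.7% and 14.1% over all genes). Summed levels were 1891 and 1990 CPM against 1495 and 1319 CPM. These markers, too, were listed with earlier results of these data known, so the count is no independent support. MKI67 was 1.57-fold and CDK1 1.56-fold higher (adjusted p = 1.43e-10 and 4.16e-11), and TOP2A did not pass (1.10-fold, adjusted p = 0.0961; 0.0467 without scramble replicate 2). The part of proliferation in the differences of the HMG genes was not tested.

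The genomic surroundings of the HMG genes were read within 500 kb. Summed over the 10 windows, 73 neighbour entries with a mean of at least 1 CPM held 15 higher, 14 lower and 44 that did not pass. Over all genes tested 16.7% were higher and 14.1% lower. With a mean of at least 1 CPM asked of all genes, 2488 of 13318 were higher and 2190 lower. Near HMGB2, GALNT7, 7.4 kb away, did not pass (257.4 and 263.8 against 234.2 and 246.7 CPM, adjusted p = 0.175), and passed once scramble replicate 2 was left out (adjusted p = 0.0361). SAP30, a subunit of the SIN3 deacetylase complex 36.6 kb away, had 30.1 and 30.6 against 21.9 and 24.8 CPM and was higher under the HMGB2 siRNA label (0.38, adjusted p = 0.00163). GALNT7-DT was lower (-0.37, adjusted p = 0.0398), a call that ended in 5 of 12 alternatives. The window of HMGN4, itself lower, lies in the histone gene cluster of chromosome 6. Of its 8 histone genes 7 were lower, H1-2 among them, and 0 were higher. Of its 11 other expressed genes 1 was lower and 2 were higher. The split into histone and other genes was made after the values were seen. Histone transcripts without a poly(A) tail may be missing from these counts of poly(A) RNA.

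The genes whose pattern over the 4 libraries was closest to HMGB2, by Euclidean distance of centred log2 CPM among genes with a mean of at least 5 CPM, included SLC9A2 (distance 0.79), CRMA (0.99), MAT2B (1.05) and PMP22 (1.14). With 2 libraries a group this measure mostly ranks genes by the size of the difference between groups. The fifth of the set is not named here.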

How the data were processed

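Panc1 poly(A) RNA was sequenced in 4 libraries, 2 for each label. The deposited values are raw read counts per gene over listed exons, 1 table per library, per the file headers. STAR, SAMtools 1.9, featureCounts of Subread 1.6.3 and DESeq2 are named, with GRCh38, per the submitters' processing notes. How strand and multimapping reads were handled is not given in the sources used here. Tables follow the recorded sample and its label, although their column headings name the opposite treatment. The members and gene lists were chosen with earlier results of these data known. Counts were tested with edgeR 4.0.16 in R 4.3.3 (glmQLFit, glmQLFTest, TMM scaling, filterByExpr with a smallest count of 10 and smallest total of 15, Benjamini-Hochberg adjustment, threshold 0.05). SE is the log2 fold change over the square root of F, and intervals are 95%. CPM used TMM-scaled library totals and TPM the deposited exon length. Genes named from each list were up to 4 called members with the smallest p, or, where none was called, the 2 with the highest mean CPM, together with the neighbours of HMGB2, the 3 most counted HMG pseudogenes and the 5 genes nearest HMGB2 in pattern. One gene given by the naming rules is not reported here. The 12 alternatives were 3 other scalings, 2 other low-count filters, DESeq2 1.42.0, limma-voom 3.58.1, a replicate block and leaving out each library. The fit was tested on simulated counts. It recovered 32.0% of 1.25-fold, 68.0% of 1.5-fold, 79.2% of 2-fold and 91.8% of 4-fold differences, with 3 false calls. Whether these shares hold for the measured libraries, where 30.8% of tested genes were called, was not tested. A gene that did not pass may still differ by a small amount. The libraries of a group differed by more than sampling noise (chi-square per degree of freedom 3.1 and 5.68).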

Additional observations from a re-analysis of the deposited data

How the results depend on the processing

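HMGB2 kept its direction and its call in all 12 alternatives (log2 fold change 3.02 to 3.11), as did HMGN2, HMGN3 and HMGN5. The number of HMG genes called higher was 4 to 6. The number called lower was 0 to 3 with a library left out, and it was 0 without replicate 1 labelled HMGB2 siRNA, where fewer samples enter. The related genes were the HMG-box, SET complex, extracellular HMGB1, linker histone and let-7 lists and the proliferation markers. In that order 33, 4, 3, 5, 8 and 8 were tested. Of them 21 were called higher, 7 of these being proliferation markers, and 10 lower (16.7% and 14.1% over all genes). In the alternatives that kept all 4 libraries 19 to 22 were higher and 9 to 13 lower. Fewer were lower with either library labelled HMGB2 siRNA left out, where 1 library remains in that group. Over all genes, 1481 to 2904 were called higher and 903 to 2291 lower with a library left out, and DESeq2 called 1284 lower against 2135; the cause was not tested. Upper-quartile and total-count scaling shifted the median of all genes to -0.06 and -0.05, and 42.0% and 43.3% of calls were then higher, against 54.3%. The share of HMGB2 in the HMGB sum was 32.6% to 32.7% and 5.85% to 6.04% with a library left out. The labels do not say that a replicate number marks shared material, and same-numbered libraries did not deviate together (correlation -0.0144); with the replicate block 4 HMG genes were higher and 3 lower, HMGB1 being the one lost. The part of depth in lost calls was not tested: HMGN3-AS1 (48 to 76 counts a library) lost its call in 4 alternatives, and HMGN5 (50 to 142 counts) in none.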
